A study of Homo sapiens with 5 samples.

Results

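The genes described here are 10 regulators of the passage from G1 into S phase: the cyclins CCND1, CCND2, CCND3 and CCNE1, the cyclin-dependent kinases CDK2, CDK4 and CDK6, the kinase inhibitors CDKN1A and CDKN1B, and PCNA. They were chosen by name, as the G1 arrest programme through which FOXO factors are known to act, out of 19862 protein-coding genes placed on chromosomes. Earlier results of these data were known when the choice was made. FOXO3A binding was mapped by CUT&Tag, in which an antibody brings a Tn5 transposase to chromatin so that DNA around the bound protein is cut and tagged. The cells were THP-1 (3 libraries) and U-937 (2 libraries), established human lines that the labels class as acute myeloid leukemia cells. The labels name no treatment or genetic change, the same FOXO3A antibody was used throughout, and no control library was used here. Replicate 1 of THP-1 held 1282 peaks, 1037 of them on chromosomes, and replicate 1 of U-937 held 2272, whereas the other 3 libraries held 0. Every value below therefore comes from 1 library, with no replicate check and no test, and the read depth is unknown.

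D-type cyclins switch on CDK4 and CDK6, which phosphorylate the retinoblastoma protein and release E2F factors. Cyclin E with CDK2 completes that step, and PCNA then encircles DNA as the sliding clamp of the replication polymerases. CDKN1A (p21) and CDKN1B (p27) hold the kinases back. FOXO factors, which AKT keeps out of the nucleus, are known to raise CDKN1B and CDKN1A and to lower D-type cyclins, and so to arrest cells in G1.

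In U-937, peaks stood at CCND3, CDK2, CDK4 and PCNA, 4 of the 10 genes, with a summit within 1000 bp of an end of the gene. Over all protein-coding genes 7.02% had such a peak. By role, the 4 were 1 of 4 cyclins, 2 of 3 kinases, 0 of 2 inhibitors and PCNA. In THP-1, 0 of the 10 genes had one, against 0.222% of protein-coding genes. The lists were not made alike, as the deposited score followed the -log10 q in 1281 of 1282 THP-1 peaks and in U-937 the -log10 p in each of the 2272, so the counts and distances of the lines are given side by side without a comparison. The authors' fold enrichment, a linear ratio whose background they do not state, was 8.66 at CCND3, 8.37 at CDK2, 7.17 at PCNA and 6.93 at CDK4 in U-937. All 4 lay above the median of that list, 6.16, and far below its maximum of 22.03.

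Only the peak at CDK4 had the member as its closest protein-coding gene. The peaks counted for CCND3, CDK2 and PCNA had summits nearer to the neighbouring genes TAF8, RAB5B and CDS2. Giving each summit to its closest protein-coding gene alone, a choice made after seeing the data, left 1 of the 10 genes with a peak (CDK4), against 5.61% of all protein-coding genes. A window of 500 bp left 2 of the 10 (background 6.23%), and distance to a tabulated transcription start alone 2 of the 7 genes that have one (background 7.75%), CDK4 and PCNA in both cases. Shared peaks were common in this list. Of 1395 protein-coding genes with a peak at an end, 585 (41.9%) shared it with another protein-coding gene.

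**Figure D1:**
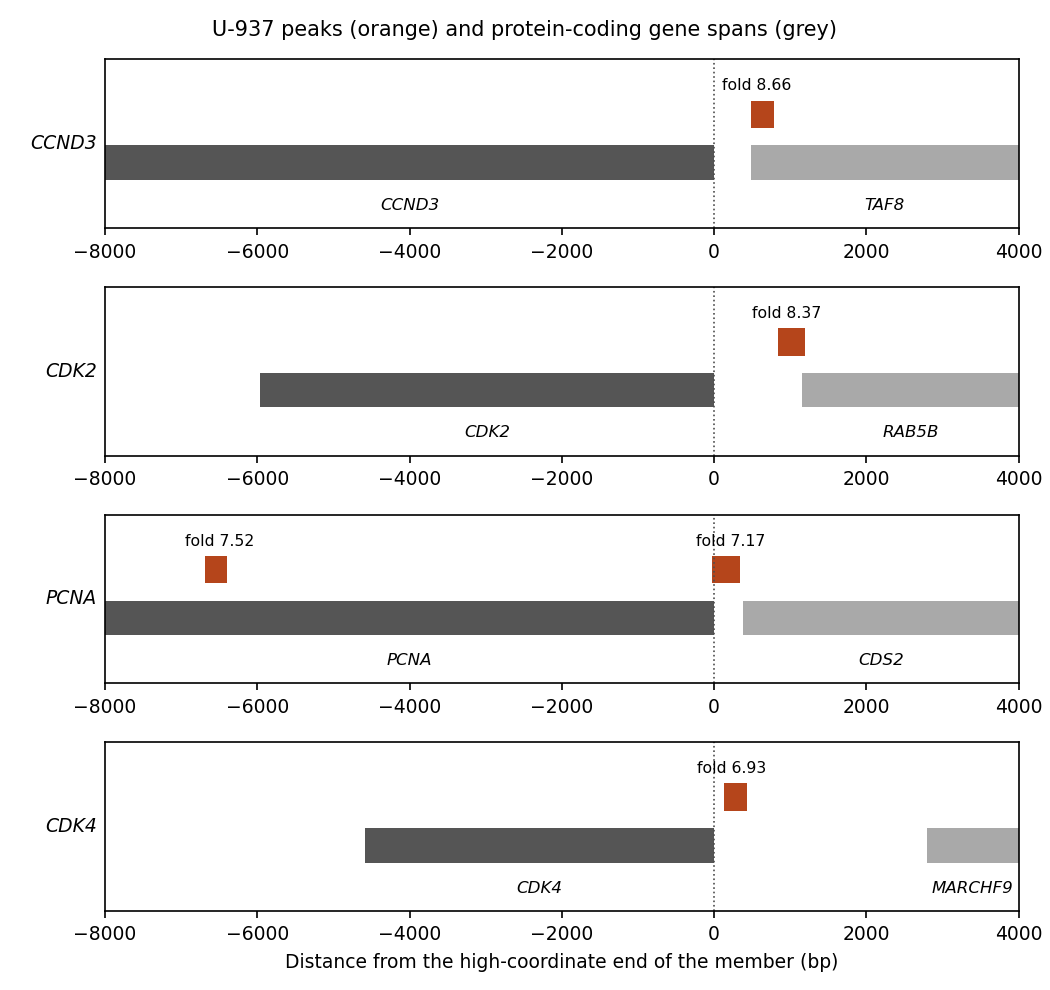
Spans of CCND3, CDK2, PCNA, CDK4 and the next protein-coding gene past each (grey boxes; TSPAN31, which overlaps CDK4, is not drawn) and U-937 peaks (orange boxes, labelled with the authors' fold enrichment), drawn by distance in bp from the high-coordinate end of each member (dotted line). The peak beside CCND3 lies just inside the low-coordinate end of TAF8, and the peak beside CDK2 at the start of RAB5B. The summit of the outer PCNA peak lies in the 385 bp between PCNA and CDS2. The CDK4 peak has no other protein-coding end within 1000 bp.

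Among the cyclins, CCND3 (chr6:41934933-42050035, hg38), the D-type cyclin prominent in blood cells, had the strongest peak of the 10 genes. It spanned chr6:42050525-42050820, 296 bp wide, with a fold enrichment of 8.66, a -log10 q of 8.99 and rank 309 of 2272 by fold. Its summit lay 561 bp beyond the high-coordinate end of CCND3, the end where the gene begins, since the promoter table places CCND3 on the minus strand. The same summit lay 72 bp inside TAF8, a subunit gene of the general transcription factor TFIID, whose span starts 488 bp past the end of CCND3. The nearest CCND3 transcription start in the promoter table was 1908 bp from the summit, so the peak counted for CCND3 at the gene end but not at a tabulated start.

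The other cyclins had no U-937 peak at either end. The peak nearest to CCND1 (chr11:69641156-69654474), the cyclin most often amplified in solid tumours, was 63.7 kb away at chr11:69718077-69718270, in no annotated gene and 14.2 kb from FGF19. Its fold enrichment of 2.89 and -log10 q of 1.56 were the lowest of the list, a fold shared by 164 peaks. The peak nearest to CCNE1 (chr19:29811991-29824312), the cyclin that activates CDK2, was 224.1 kb away, outside any gene and 18.4 kb from POP4, with a fold of 6.40 and a -log10 q of 5.14. CCND2 (chr12:4273762-4305353) was the farthest of the 10 from a U-937 peak, at 545.3 kb from one inside CRACR2A, with a fold of 5.27 and a -log10 q of 3.23. No summit fell inside the span of any of the 4 cyclin genes.

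Of the kinases, CDK4 (chr12:57747727-57752310) carried a peak just upstream of its own start. The peak spanned chr12:57752442-57752746 with a fold of 6.93, a -log10 q of 5.80 and rank 810, and its summit lay 236 bp upstream of the start at 57752310 on the minus strand. The next protein-coding gene on that side, MARCHF9, began 2792 bp from the CDK4 end, and no other annotated gene had an end within 1000 bp of the summit. The CDK4 promoter is shown because it holds the summit and is the only one of the 4 that the closest-gene rule leaves to a member. These are the 250 bases before the start (RefSeq, GRCh38.p14, minus strand, chr12:57752311-57752560), of which 119 lie in the peak, with capitals marking matches to the searched motifs. They are CACGTG, the E-box, at 3 places, and CCGCCC, the SP1/KLF motif read on the other strand, also at 3.
CDK4 promoter: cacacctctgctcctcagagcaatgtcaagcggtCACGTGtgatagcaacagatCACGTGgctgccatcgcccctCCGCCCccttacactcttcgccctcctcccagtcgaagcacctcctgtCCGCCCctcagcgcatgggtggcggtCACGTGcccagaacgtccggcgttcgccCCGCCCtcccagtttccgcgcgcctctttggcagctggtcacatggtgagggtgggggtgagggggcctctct
The closest base of the nearest E-box was 20 bp from the summit, and 2 of the 3 lay inside the peak. An E-box was present in 7.26% of the 35116 promoter windows of 300 bp in the table (250 before to 50 after the start), and in 11.1% of the 1482 windows that overlapped a U-937 peak. Of the 11 windows of the members 2 held an E-box, that of CDK4 and that of the CDK6 start at 92836573, which was under no peak. Neither TGTTTAC nor its core TGTTTA, the letters searched for forkhead factors, was in the CDK4 window on either strand.

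CDK2 (chr12:55966830-55972789), the kinase of the G1/S and S phase cyclins, was counted for a peak at its high-coordinate end. The peak spanned chr12:55973626-55973989 with a fold of 8.37, a -log10 q of 8.32 and rank 371, and its summit was 956 bp beyond that end, close to the limit of the window. CDK2 is known to be transcribed toward RAB5B, which makes that end its 3′ end, although the tables used here give no strand for CDK2. The summit was 6915 bp from the other end of CDK2 and 204 bp upstream of the start of RAB5B, a gene of early endosome traffic on the plus strand at 55973949. The RAB5B promoter is shown because it holds this summit, with the 250 bases before the start at 55973949 (RefSeq, GRCh38.p14, plus strand, chr12:55973699-55973948), all of them inside the peak. Capitals mark TGTTTA, the forkhead core, ATTGG, the CCAAT box read on the other strand, at 2 places, and CCGCCC.
RAB5B promoter: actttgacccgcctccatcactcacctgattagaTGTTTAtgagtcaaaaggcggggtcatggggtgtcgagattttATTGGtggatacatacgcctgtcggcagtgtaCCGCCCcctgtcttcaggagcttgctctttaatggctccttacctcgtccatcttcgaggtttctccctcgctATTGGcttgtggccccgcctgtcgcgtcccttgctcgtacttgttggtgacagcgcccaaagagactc
The closest base of the TGTTTA match was 7 bp from the summit. The longer forkhead motif TGTTTAC had no match in the window. TGTTTA was present on either strand in 12.3% of all promoter windows and in 5.26% of those under a U-937 peak.

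CDK6 (chr7:92604921-92836573), the partner of D-type cyclins in many blood cells, had 1 peak inside its span and none at its ends. The inner peak, at chr7:92755202-92755420, had a fold of 7.20, a -log10 q of 6.47 and rank 699. It lay 81.3 kb downstream of the CDK6 start, and the gene table gives no exons to place it in an exon or intron. The peak nearest to an end of CDK6 was 14.9 kb from its low-coordinate end, at chr7:92589857-92590082 with a fold of 7.14 and a -log10 q of 6.35. That peak lay in FAM133B, 72 bp from a start of that gene. Counting summits inside a span as well as at an end brought the members with a peak to 5 of 10, against 9.98% of all protein-coding genes.

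The inhibitors had no nearby peak in either line. In U-937 the nearest peak to CDKN1A (chr6:36676463-36687332) was 253.0 kb away inside PXT1, with a fold of 6.06 and a -log10 q of 5.09. The nearest to CDKN1B (chr12:12717368-12722369) was 249.4 kb away inside BORCS5, with a fold of 5.20 and a -log10 q of 3.70. Of all protein-coding genes, 52.4% were at least as close to a U-937 peak as CDKN1A and 52.1% at least as close as CDKN1B, so both sat near the middle of the genome-wide order. The CDKN1B promoter, of a gene widely described as a FOXO target, is shown as the counterpart without a peak (RefSeq, GRCh38.p14, plus strand, chr12:12717118-12717367). Capitals mark CCAAT at 2 places, GGGCGG, the SP1/KLF motif, and TGTTTA.
CDKN1B promoter: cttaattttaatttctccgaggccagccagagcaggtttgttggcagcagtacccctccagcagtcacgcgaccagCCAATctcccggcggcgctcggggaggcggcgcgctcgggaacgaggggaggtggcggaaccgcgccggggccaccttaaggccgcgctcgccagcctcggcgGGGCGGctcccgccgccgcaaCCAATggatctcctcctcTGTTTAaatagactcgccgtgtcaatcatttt
The TGTTTA of CDKN1B began 32 bases before the start. The CDKN1A window in the table, at a start at 36678714, held 4 GGGCGG matches and none of the other 10 motifs.

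PCNA (chr20:5114953-5126622) had a peak at both of its tabulated starts. Among the 7 genes with tabulated starts, only CCND3 and CDK6 also had more than 1. Neither had a summit within 1000 bp of any of them. The outer peak, chr20:5126590-5126961, had a fold of 7.17, a -log10 q of 6.21 and rank 714, and its summit lay 214 bp upstream of the start at 5126622 on the minus strand. CDS2, which encodes a phospholipid synthesis enzyme, is on the plus strand and starts at 5127008. The summit was therefore 172 bp upstream of CDS2, and both genes point away from that summit. The inner peak, chr20:5119932-5120227, had a fold of 7.52, a -log10 q of 6.82 and rank 611. Its summit lay 172 bp upstream of the other tabulated PCNA start, at 5119958, and 161 bp from the end of PCNA-AS1, an antisense lncRNA. Both PCNA promoters are shown because a peak covers the whole of each (RefSeq, GRCh38.p14, minus strand). They are chr20:5126623-5126872 for the outer and chr20:5119959-5120208 for the inner start. Capitals mark CCAAT or ATTGG and GGGCGG or CCGCCC, with 3 overlapping GGGCGG matches forming the longest run of the outer promoter.
PCNA outer promoter: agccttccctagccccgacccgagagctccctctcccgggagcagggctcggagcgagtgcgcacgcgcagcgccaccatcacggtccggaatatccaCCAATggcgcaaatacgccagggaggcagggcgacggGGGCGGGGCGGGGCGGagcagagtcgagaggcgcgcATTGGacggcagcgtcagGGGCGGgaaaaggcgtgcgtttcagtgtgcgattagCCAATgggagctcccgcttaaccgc
PCNA inner promoter: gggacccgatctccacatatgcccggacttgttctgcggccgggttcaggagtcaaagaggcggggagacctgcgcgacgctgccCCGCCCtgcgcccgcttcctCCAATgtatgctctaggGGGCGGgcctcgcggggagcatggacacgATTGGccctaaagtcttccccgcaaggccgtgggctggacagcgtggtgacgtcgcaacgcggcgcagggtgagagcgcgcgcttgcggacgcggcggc
The outer window held 3 CCAAT boxes and 4 GGGCGG matches, and the inner window held 2 of each. A CCAAT box was in 34.6% of all promoter windows and in 50.7% of those under a U-937 peak, and GGGCGG was in 45.0% and 75.2%. Over the 11 windows of the members, GGGCGG was in 9 and a CCAAT box in 5. Windows under no peak were among both, such as that of CDKN1B. Neither PCNA window held TGTTTA or the only E2F letters searched, TTTCGCGC and TTTGGCGC. Other spellings of the E2F site were not searched, so neither window can be called free of E2F sites.

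Over the 7 members in the promoter table, with 11 windows (CCND1, CCND2 and CDK2 are not among them), the full forkhead motif TGTTTAC was found in 1 window. This was at the CCND3 start at 42048688, which lies 1908 bp from the summit of the CCND3 peak, and not under the peak. TGTTTAC was in 3.42% of all windows and in 1.69% of the windows under a U-937 peak. The median GC content of the 250 bases before the start was 58.0% over all windows and 64.0% under a U-937 peak, against 65.6% at CDK4, 68.4% and 69.2% at the PCNA starts and 54.0% at RAB5B. The 8 member windows not under a U-937 peak ranged from 61.2% to 81.2% with a median of 72.8%, above the 68.4% median of the 3 under one. A match is a description of the letters only.

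**Figure D2:**
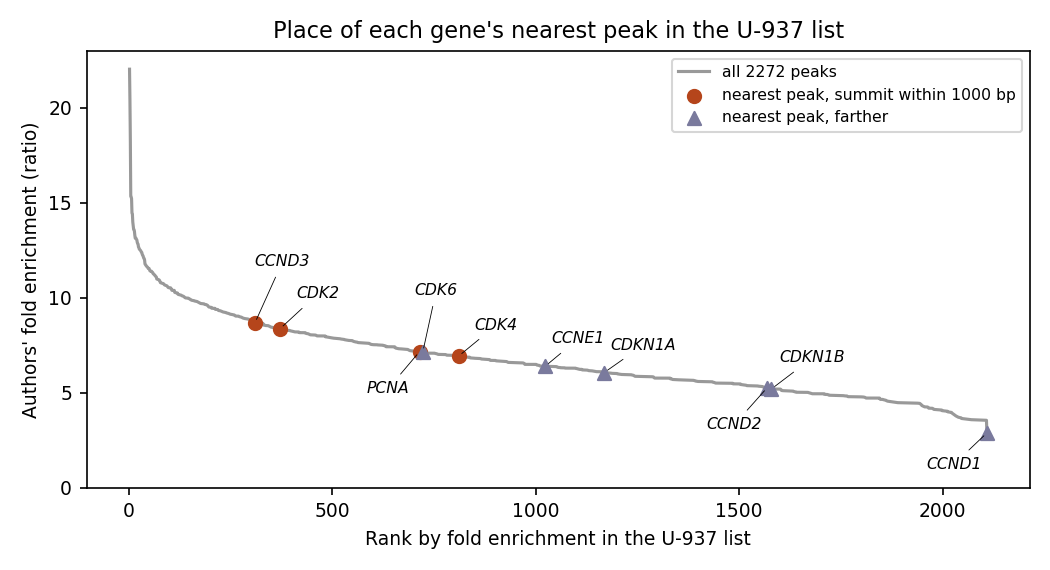
Authors' fold enrichment (vertical axis, ratio) against rank in the U-937 list (horizontal axis) for all 2272 peaks (line) and for the peak nearest to an end of each of the 10 genes (circles within 1000 bp, triangles farther). The 4 circles lie between ranks 309 and 810, and the farther peaks between ranks 722 and 2109.

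The 4 peaks at gene ends were of ordinary to high strength for their kind. Over the 1110 U-937 peaks at an end of a protein-coding gene the median fold was 6.59, with quartiles of 5.38 and 8.17. The CCND3 peak exceeded 80.5% of them, the CDK2 peak 77.3%, the PCNA peak 60.6% and the CDK4 peak 56.3%. In the order of fold over the 1395 protein-coding genes with a peak, in 1 library, ESYT1 and ZC3H10, which share a peak of fold 8.77, stood next above CCND3. COPS7A had the same fold of 8.66 as CCND3, and TAF8 has the same peak. In all, 20 genes were closer to CCND3 in fold than the 0.11 to ESYT1, so a similar fold singles out no gene. Peak widths at the 4 genes ran from 296 to 372 bp, above the 252 bp median of such peaks.

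In THP-1 no peak lay near any of the 10 genes. The closest was 747.5 kb from CDKN1A, at chr6:35928534-35928941, outside any gene and 7.82 kb from SRPK1, with a fold of 4.40, a -log10 q of 2.47 and rank 1074 of 1282. CCND2, CCND1 and CCND3 followed at 1.55, 1.73 and 1.99 Mb, CCNE1 at 2.63 Mb, PCNA at 3.01 Mb, CDKN1B at 4.47 Mb and CDK6 at 5.97 Mb. CDK2 and CDK4 had the same nearest peak, chr12:37246288-37247320, at 18.7 and 20.5 Mb, with a fold of 9.52 and a -log10 q of 13.6, over 1 Mb from any protein-coding gene. The median distance of the 10 genes was 2.82 Mb, beside 2.39 Mb over all protein-coding genes in that list. In U-937 it was 39.3 kb, beside 226.4 kb, but the 6 members without a peak at an end had a median of 236.8 kb. That was close to the median of all genes, which include the genes with a peak at an end. The nearest THP-1 peak of PCNA lay inside STK35, 552 bp from an end of that kinase gene, with a fold of 4.73. Fold enrichment was not compared between lines, as neither list states its background.

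**Figure D3:**
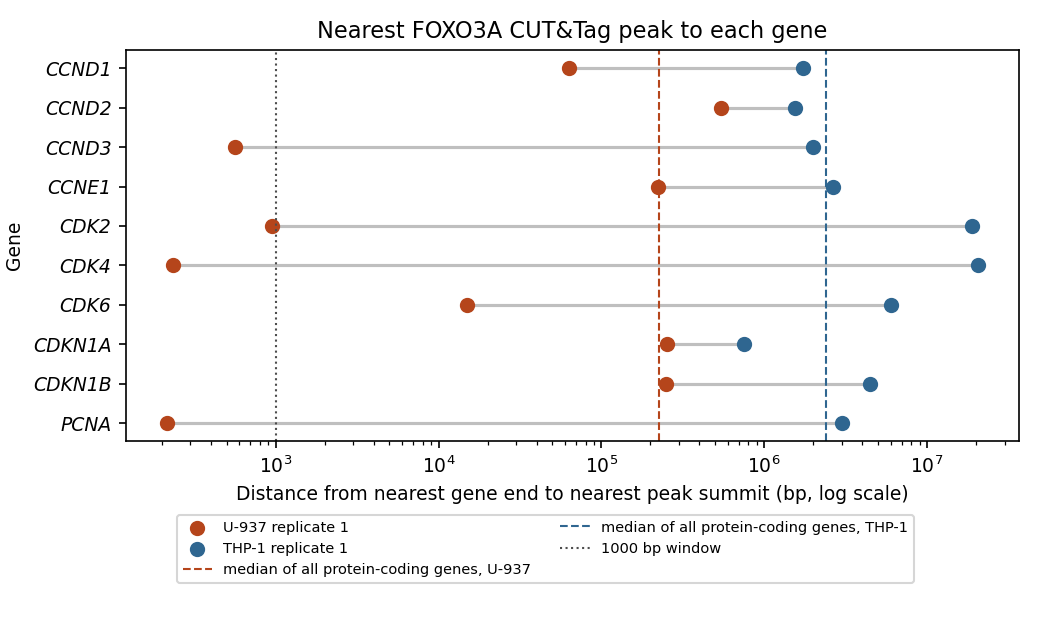
Distance in bp (log scale) from the nearer end of each of the 10 genes to the nearest peak summit in U-937 replicate 1 (orange) and THP-1 replicate 1 (blue). Dashed lines mark the medians over all protein-coding genes (226.4 kb and 2.39 Mb) and the dotted line the 1000 bp window; in U-937, 4 genes lie left of the dotted line, and the THP-1 points run from 747.5 kb to 20.5 Mb.

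Other genes of G1/S control also carried U-937 peaks. Of 21 further cyclins, kinases, inhibitors and their regulators, 6 did, against the 7.02% of all protein-coding genes. CDC25A, the phosphatase that activates CDK2, had a fold of 6.88 and a -log10 q of 5.80, and its summit lay 100 bp from its start. SKP1, a core subunit of the ubiquitin ligase that degrades p27, had a fold of 6.50. CKS1B, a cofactor of the same ligase, had a fold of 6.15 at a peak shared with SHC1. CCNH, the cyclin of the CDK-activating kinase, had a fold of 5.38, and the inhibitor CDKN2D (p19) one of 5.01. CCNE2, the other cyclin E, had a fold of 4.72 at 849 bp, at a peak shared with NDUFAF6. With a -log10 q of at least 5 the 6 became 2, CDC25A and SKP1, whereas all 4 members with a peak passed that limit (background 3.93%). Among the strongest 1000 peaks the counts were the same 2 and 4 (background 3.68%).

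Of 18 genes of the RB and E2F family and the DREAM complex, 4 had a U-937 peak, again against 7.02% of all protein-coding genes, and none of these was RB1 itself, a pocket protein gene or an E2F gene. They were LIN52 (fold 6.98), LIN37 (fold 6.88), LIN54 (fold 4.72) and RBBP4 (fold 6.15), all genes of DREAM subunits. RBBP4 also encodes a histone chaperone. LIN52 shared its peak with ALDH6A1, LIN37 with PSENEN and RBBP4 with ZBTB8OS. Of 40 DNA replication genes 5 had one (12.5%, beside the 7.02%). These were CDC45 (fold 6.50, shared with UFD1), LIG1 (fold 5.69, shared with ZSWIM9), RPA2 (fold 4.95), ORC6 (fold 4.59, shared with VPS35) and GINS4 (fold 4.06). Of 20 G2 and mitosis regulators 1 did, a share of 5.0% that was near the 7.02% of all protein-coding genes: CDC25C (fold 5.35, shared with FAM53C), a phosphatase gene of mitotic entry. In THP-1 0 genes of each list had a peak, beside 0.222% of all protein-coding genes.

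Cell cycle genes known as FOXO targets carried none. Of 13, among them CDKN1A, CDKN1B, CCND1 and CCND2 of the genes above and also RBL2, CCNG2 and GADD45A, 0 had a peak at an end in either line. The background in U-937 was the same 7.02%, and a count of 0 among 13 genes is near that share. The median distance of these 13 genes to a U-937 peak was 253.0 kb, beside 226.4 kb over all protein-coding genes.

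**Figure D4:**
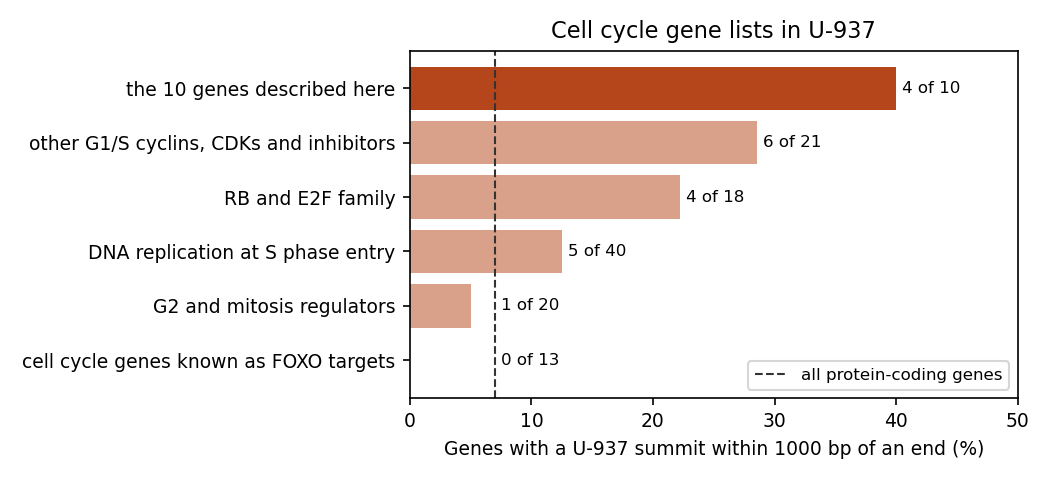
Percentage of genes with a U-937 summit within 1000 bp of an end (bars, labelled with counts) for the 10 genes described here and 5 lists of cell cycle genes; the dashed line is the 7.02% of all protein-coding genes. The bars range from 4 of 10 genes to 0 of 13, and no error bar is drawn because 1 library was used.

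Peaks do not measure expression, so the lines could not be checked by their transcripts. Of 10 monocytic marker genes 1 had a U-937 peak, CD68, at a peak shared with EIF4A1, and in THP-1 0 did, beside backgrounds of 7.02% and 0.222%. The 5 lymphoid and the 3 erythroid marker genes had 0 in both lines.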

How the data were processed

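FOXO3A CUT&Tag peak lists of 5 libraries were used. The tools named per the submitters' processing notes are Bowtie2 and Picard, with build hg38. Peak caller, background and read depth: not given in the sources used here. The authors deposited 1 list per library, without a header. Read by the narrowPeak layout, the deposited values were a fold enrichment (linear ratio), the -log10 p-value and -log10 q-value, and a summit position ("other" unit, bp). Peak names in the THP-1 list carry another library label than the sample title. Depth being unknown, no interval is given. Fold enrichment was used only within its list.

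Genes came from RefSeq (GRCh38.p14). Of 59792, 835 off chromosomes 1 to 22, X and Y or out of coordinate order were left out. Distances ran from the summit to either gene end, with a window of 1000 bp. Scripts (Python 3.11.15, pandas 2.3.3) were tested on simulated data. No test was run, as each line had 1 library with peaks. Members and lists were chosen with earlier results of these data known. Named were all members, up to 6 list genes with a peak in order of fold, genes sharing a member's peak and the 2 genes next in fold on each side. Other genes were named after their values were seen. Motifs were searched on both strands, and beside those spelled out with the members were NRF1 (by name) and the ETS site as CCGGAAG. The cyclic AMP response element was searched as TGACGTCA. For the TATA box the letters TATAAA and for the cell cycle homology region the letters TTTGAA were used. The forkhead core lies within the full forkhead motif.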

Additional observations from a re-analysis of the deposited data

How the results depend on the processing

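The THP-1 count stayed at 0 of the members under all 10 alternatives run. The share of all protein-coding genes ran from 0.131% (window of 500 bp) to 1.1% (window of 10000 bp). A count of 0 among 10 genes is near each of these shares. In U-937 the count of 4 members fell to 2 with a window of 500 bp and to 2 of 7 with transcription starts only (CDK4 and PCNA both times, background 6.23% and 7.75%). It fell to 1 when a summit counted for its closest protein-coding gene only (background 5.61%), an alternative chosen after seeing the data. Under the other 7 it was 4 or 5, with backgrounds from 3.68% (strongest 1000 peaks) to 11.3% (window of 10000 bp). The 6 other G1/S genes became 2 with a -log10 q of at least 5 (background 3.93%) and 2 with the strongest 1000 peaks (background 3.68%). They were 5 or 6 under the other 8, with backgrounds from 5.61% (closest gene only) to 11.3% (window of 10000 bp). The 500 bp window and the closest-gene rule count fewer positions by construction. No paired analysis was possible because each line had peaks in replicate 1 alone, and for the same reason no replicate could be left out. Unknown depth means that a gene without a peak cannot be called unbound.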
